A study of Mus musculus with 9 samples.

Results

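The genes described here encode the proteasome, and they are the 43 gene symbols of the count table that begin with Psma, Psmb, Psmc, Psmd or Psme and end in a number, of 24393 gene symbols in all. By name class, 19 belong to the core (Psma and Psmb), 6 to the base (Psmc), 14 to the lid class (Psmd) and 4 to the activators (Psme). RNA was measured in pancreatic islets of female mice, isolated with collagenase and kept in culture overnight. The 4 knockout (KO) libraries carried the genotype Rip-cre; Ogt f/f, in which Cre recombinase driven by an insulin promoter deletes floxed Ogt, the gene for O-GlcNAc transferase, mainly in beta cells. The 5 wild-type (WT) libraries had no Cre transgene: WT replicates 2, 4 and 5 were Ogt f/f and WT replicates 1 and 3 were Ogt f/+. No group carried Cre without the floxed gene, so the presence of Cre and the loss of Ogt cannot be told apart. KO replicates 1 and 2 and WT replicates 1 to 3 were sequenced in run 1, and KO replicates 3 and 4 and WT replicates 4 and 5 in run 3. Age is not given, nor whether each library was a different animal, and p-values therefore cover only the spread among these libraries, which may be technical.

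The proteasome is the protease that degrades most ubiquitin-tagged proteins of the nucleus and cytoplasm. Its core is a barrel of rings of alpha subunits, which gate the entrance, and rings of beta subunits, some of which cut the substrate. A cap made of a base, whose ATPases unfold the substrate, and a lid, which removes the ubiquitin, closes the barrel, and activators can take the place of the cap. Beta cells make and fold large amounts of proinsulin, and misfolded proinsulin is among the proteins that reach the proteasome from the endoplasmic reticulum.

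Ogt checked the labels. It stood at 23.7, 24.1, 30.9 and 39.3 CPM (counts scaled to a common library size by TMM) in KO libraries, against 69.6, 54.1, 83.0, 67.0 and 81.8 CPM in WT libraries, with no overlap. Totals of 3796043 to 6073537 counts per library were available, and the proteasome genes held 0.228% to 0.331% of them. The ribosomal RNA gene Rn45s held 9.64% to 28.6%. Its share was highest in WT replicates 2 and 5 (28.6% and 24.3%), where the proteasome share was lowest (0.228% and 0.229%). Libraries of run 1 had counts for 14485 to 15136 genes and those of run 3 for 20069 to 21067 genes, so run was a term in the model. The beta cell markers Ins1, Ins2, Iapp and others of a list of 10 were present in every library, with summed levels of 42800 to 83100 CPM in KO and 47900 to 110000 CPM in WT. Gene by gene, 5 of these 10 markers were called lower in KO and 0 higher (median log2 fold change −0.43), and the part of this shift in the proteasome values below was not tested. Summed acinar markers stood at 2240 and 484 CPM in KO and at 2580, 6460 and 4990 CPM in WT libraries of run 1, and at 106 and 268 CPM in KO and 158 and 159 CPM in WT libraries of run 3. Log2 fold changes were positive for 8 of 8 tested fibroblast and stellate markers (median 0.56, 1 called higher). They were positive for 7 of 8 alpha, delta and PP cell markers (median 0.375, 2 called higher). The counts were 9 of 13 for immune, 5 of 8 for endothelial, 2 of 6 for duct and 1 of 13 for acinar markers. The part of these shifts in the proteasome values was not tested either. In RNA of whole islets, fewer cells of a type and less RNA per cell cannot be told apart.

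The proteasome genes that passed the test were all higher in KO than in WT islets, by less than 1 on the log2 scale. Calls were made in edgeR's quasi-likelihood test with run and genotype as terms, at a p under 0.05 after Benjamini-Hochberg adjustment over all 12501 tested genes. Of the 41 proteasome genes with enough counts to be tested, 6 rose in KO islets, 0 fell and 35 were not called. The background was 18.5% of all tested genes called, 9.56% higher and 8.96% lower, against 14.6% of the proteasome genes, all of them higher. For the count of 0 falls, 1 gene was lower at an unadjusted p under 0.05, beside 14 that were higher, and DESeq2 called 0 lower and 5 higher. The 6 that rose were Psme1, Psme3, Psmc1, Psmb10, Psmb6 and Psmd5, with log2 fold changes between 0.34 and 0.71. Psma8 and Psmb11, subunits known from germ cells and from the thymus, had at most 10 counts in any library and were not tested.

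The median log2 fold change was 0.12 over the 41 tested proteasome genes, against 0.02 over all tested genes, and it was positive for 29 of the 41, against 52% of all tested genes. By name class, the median was 0.20 for the 17 tested core genes, 0.01 for the 6 base genes, 0.08 for the 14 lid-class genes and 0.34 for the 4 activators. The activator median depends in part on Psme2 (0.32), whose positive value was not kept when its counts were summed with those of its copy Psme2b (described below). Called genes numbered 2 in the core, 1 in the base, 1 in the lid class and 2 among the activators. Within the core, all 10 tested Psmb genes had a positive log2 fold change (median 0.26), whereas 3 of the 7 tested Psma genes did (median −0.01).

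The medians also differed between runs. Within run 1, the median of the proteasome genes was 0.02, with 22 of 41 positive and 1 called (Psmb10), against 6.05% of all tested genes called. Within run 3 it was 0.19, with 35 of 41 positive and 5 called (Psmb1, Psmb6, Psmc1, Psme1 and Psme3), against 8.17% of all tested genes called. Of the name classes, the base differed most between runs, with a median of −0.16 and 1 of 6 positive in run 1 and a median of 0.16 and 6 of 6 positive in run 3. Averaged over the base genes and set against the WT mean of the run, KO libraries of run 1 stood at 0.009 and −0.17 (log2). They lay within the range of the WT libraries of run 1, −0.18 to 0.11. In run 3 the KO libraries stood at 0.18 and 0.21, against 0.05 and −0.05 in WT. The lid-class median was −0.01 in run 1 and 0.17 in run 3, and the core median was 0.06 and 0.20. The interaction of genotype and run was called for 0 of the 12501 genes (0%) with edgeR, and it was the only tool run for it. At an unadjusted p under 0.05 it held for 744 genes, and 4 of them were proteasome genes, namely Psmb1, Psmb3, Psmb10 and Psma5.

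**Figure D1:**
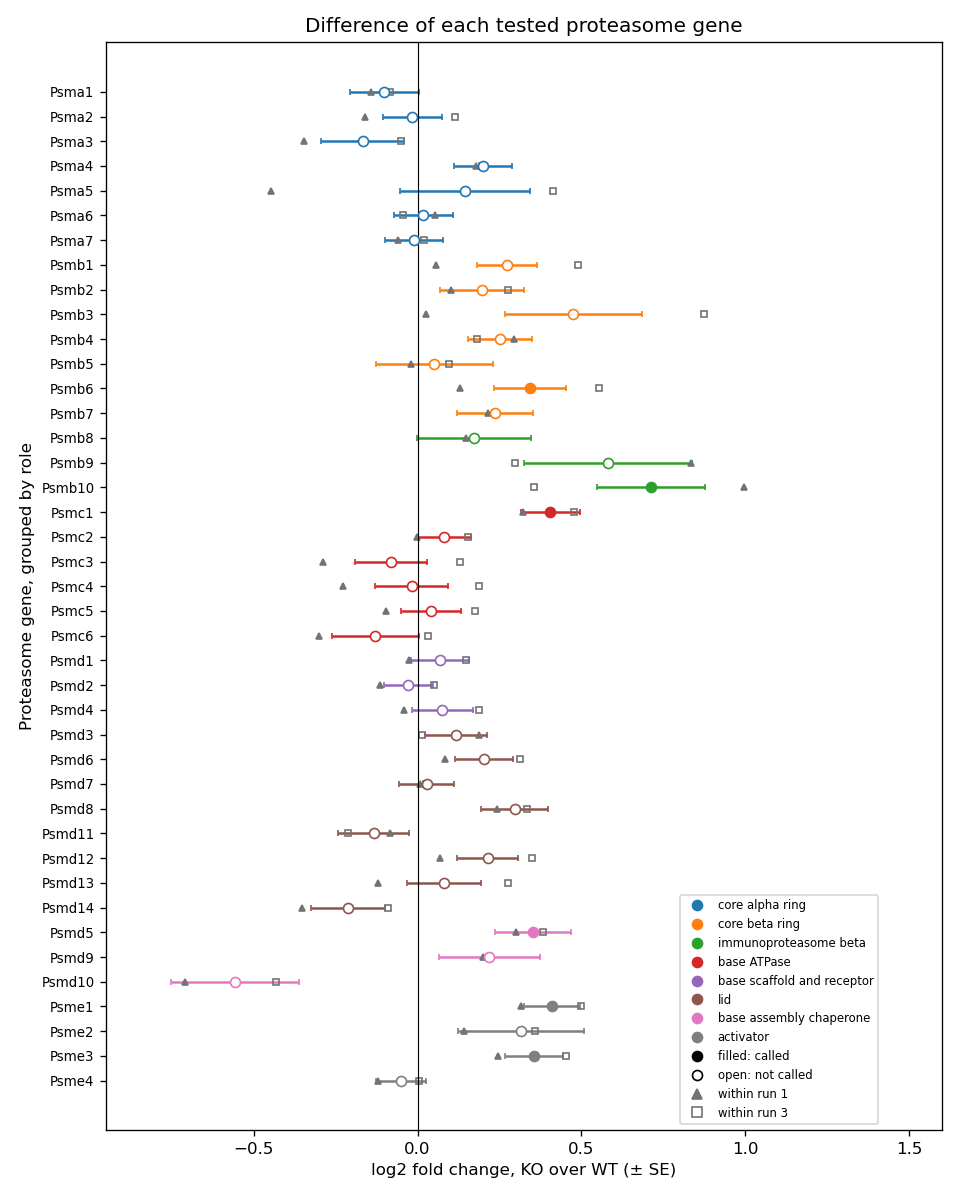
Log2 fold change of KO over WT (horizontal axis, ± SE) for the 41 tested proteasome genes, grouped by role from the alpha ring at the top to the activators at the bottom; filled circles are called, open circles are not, triangles are the value within run 1 and squares the value within run 3. The beta ring and the immunoproteasome genes all lie right of 0, the alpha ring lies around 0 with the base ATPases other than Psmc1 (0.41), and Psmd10 lies farthest to the left at −0.56.

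Counted per library, all KO libraries lay above all WT libraries of the same run for 9 of the 41 tested proteasome genes, against 11.9% of all tested genes. The 9 were Psma4, Psmb4, Psmb10, Psmc1, Psmd5, Psmd8, Psmd9, Psme1 and Psme3. They lay below them for 1, Psmd10, against 11% of all tested genes. Each library can also be set against the WT mean of its run. WT libraries are part of that mean, so by construction their differences centre on it and spread less, and their range is a narrow yardstick. Averaged over the 7 beta ring genes, the difference from the WT mean was 0.08, 0.18, 0.32 and 0.45 (log2) in KO replicates 1 to 4, against −0.10 to 0.08 in WT libraries. For the 7 alpha ring genes it was −0.05, −0.19, −0.03 and 0.19 in KO, against −0.06 to 0.05 in WT. The beta ring thus stood above the alpha ring by 0.13, 0.37, 0.35 and 0.26 in the 4 KO libraries, against −0.04 to 0.04 in the WT libraries. Above the base ATPases it stood by 0.07, 0.35, 0.14 and 0.24 in KO and by −0.05 to 0.08 in WT libraries, so that KO replicate 1 lay within the WT range. With the genes that share sequence with other genes left out (described with the alpha ring), the beta ring stood above the alpha ring by 0.18, 0.30, 0.42 and 0.29 in KO and by −0.11 to 0.14 in WT libraries. KO replicate 1 was then close to WT replicate 1, at 0.14.

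**Figure D2:**
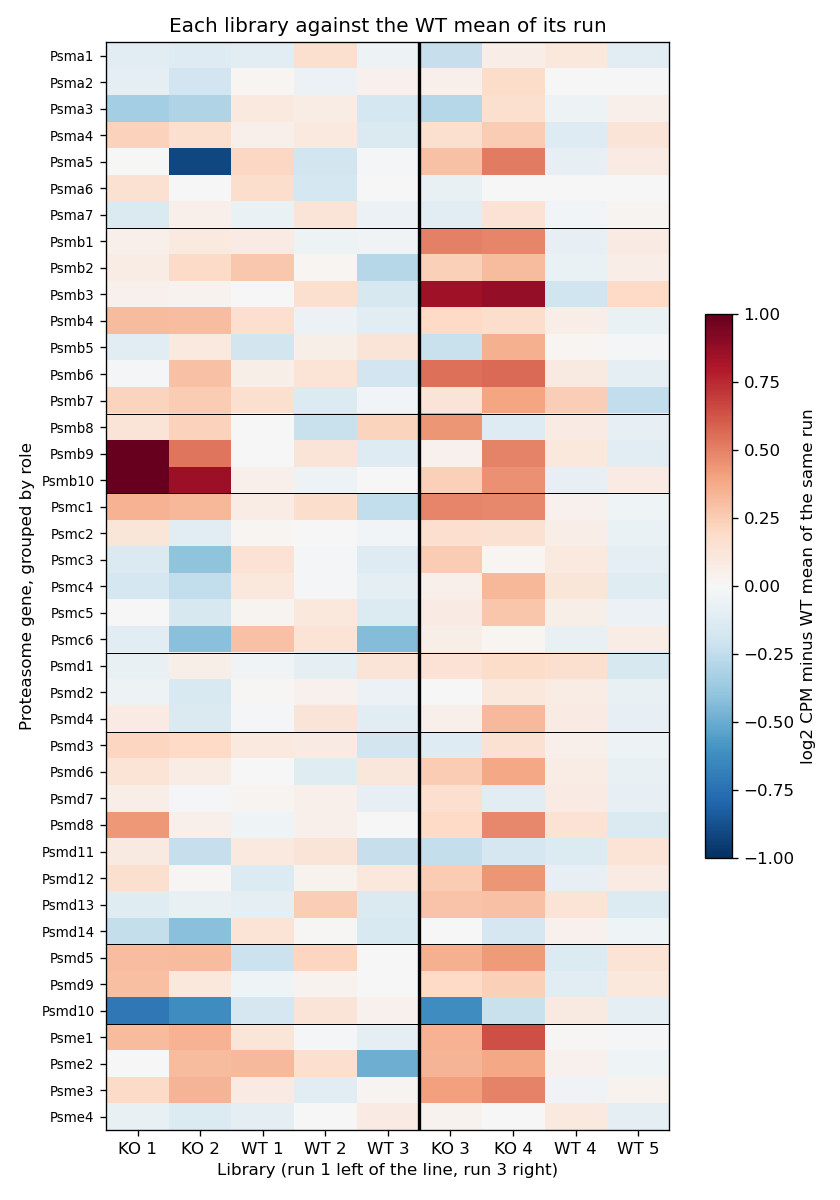
Colour gives log2 CPM minus the mean of the WT libraries of the same run for each tested proteasome gene (rows, grouped by role) and library (columns, run 1 left of the line and run 3 right, KO left of WT in each run). Psmb10 is red in all 4 KO libraries and darkest in KO 1 and KO 2, and Psmb1, Psmb3 and Psmb6 are red in KO 3 and KO 4.

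The alpha ring genes encode the gate and outer rings of the core, and none of the 7 tested genes was called. Psma4 had the lowest p, at 74.8, 71.6, 87.2 and 93.2 CPM in KO libraries, against 66.2, 68.3, 57.7, 71.2 and 85.7 CPM in WT libraries. The KO libraries lay above the WT libraries of the same run, and the log2 fold change was 0.20 ± 0.089 (SE, adjusted p = 0.134). Psma3 followed with a log2 fold change of −0.17 ± 0.13 (adjusted p = 0.398). It stood at 16.1, 16.6, 46.5 and 63.5 CPM in KO and at 22.0, 21.7, 18.2, 54.8 and 59.0 CPM in WT. Both groups were low in run 1 and high in run 3, so the spread of this gene lay between runs. Psma1, Psma2, Psma6 and Psma7 had log2 fold changes of −0.10 to 0.02 and adjusted p-values of 0.545 to 0.944. Psma5 stood at 6.30, 3.17, 35.9 and 42.1 CPM in KO, against 7.33, 5.51, 6.22, 27.6 and 30.9 CPM in WT (0.14 ± 0.20, adjusted p = 0.663), and KO libraries lay above WT libraries in run 3 but not in run 1.

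Several alpha ring genes and the activator Psme2 differed between runs far more than between genotypes. Psma5 averaged 34.1 CPM over the 4 libraries of run 3 and 5.70 CPM over the 5 libraries of run 1. Psma3 averaged 56.0 CPM in run 3 and 18.9 CPM in run 1, and Psme2 averaged 24.9 CPM in run 3 and 2.44 CPM in run 1. The run term was called for 16 of the 41 proteasome genes (31.4% of all tested genes), of which 4 were higher in run 3 (15.1% of all tested genes) and 12 were lower (16.3%). The 4 were Psme2, Psma5, Psma3 and Psma4, with log2 differences of 3.31, 2.55, 1.59 and 0.30 for run 3 over run 1.

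These 4 genes are among the 10 proteasome genes with over 10% of their 50-base stretches found also in GENCODE transcripts of other genes (GRCm38, mm10), mostly processed pseudogenes. The shares were 55.8% for Psmb3, 54.9% for Psme2, 54.5% for Psma5, 54.1% for Psmb5, 25.6% for Psmd2, 22% for Psma3, 19.2% for Psma4, 17.6% for Psmc1, 12.5% for Psmd11 and 11.3% for Psme1. Each of the other 33 shared at most 8.36%. For 2 of the 10, Psme2 and Psmb5, a gene that shares the sequence has a row of its own in the count table. For Psmb5 that gene is Mir686, a microRNA that overlaps its exons on the same strand (6.69% of the stretches) and not a copy elsewhere. The pseudogene Gm3375, which shares 46.8% with Psmb5, has no row. The sources used here do not state the handling of reads with several matches, and its part in the run difference was not tested. Psmb3 and Psmb5, with shares as high as that of Psma5, had smaller run differences in counts (0.34 and 0.43, adjusted p = 0.227 and 0.0775). In FPKM their run 3 mean was 2.12 and 2.32 times the run 1 mean, against 19.9 times for Psma5.

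For Psme2 the copy was counted too. Psme2 lies on the minus strand of chromosome 14, from 55587441 to 55591113, and the copy Psme2b lies on chromosome 11. Their coding sequences of 717 bases differ at 5 positions (99.3% identity), so short reads of the coding sequence can match both. Over whole transcripts, 54.9% of the 50-base stretches of Psme2 occur in Psme2b. The stretch from base 454 to base 543 of the coding sequence holds 3 of the 5 differences, given in capitals:
Psme2: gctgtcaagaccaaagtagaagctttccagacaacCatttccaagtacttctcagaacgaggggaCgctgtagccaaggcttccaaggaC
Psme2b: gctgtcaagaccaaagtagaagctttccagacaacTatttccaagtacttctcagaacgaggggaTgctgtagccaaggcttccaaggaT
Of the counts of both genes together, Psme2 held 4.5%, 5.31%, 62.6% and 57% in KO replicates 1 to 4, against 4.55%, 4.49%, 3.03%, 50.2% and 50.8% in WT replicates 1 to 5. The split thus followed the run and not the genotype. The sum of both was 50.4, 55, 44 and 50.2 CPM in KO, against 64.5, 57.6, 49.2, 44.7 and 41.6 CPM in WT. On the summed counts the log2 fold change was −0.000921 (adjusted p = 0.996), against 0.32 ± 0.19 (adjusted p = 0.277) for Psme2 alone.

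**Figure D3:**
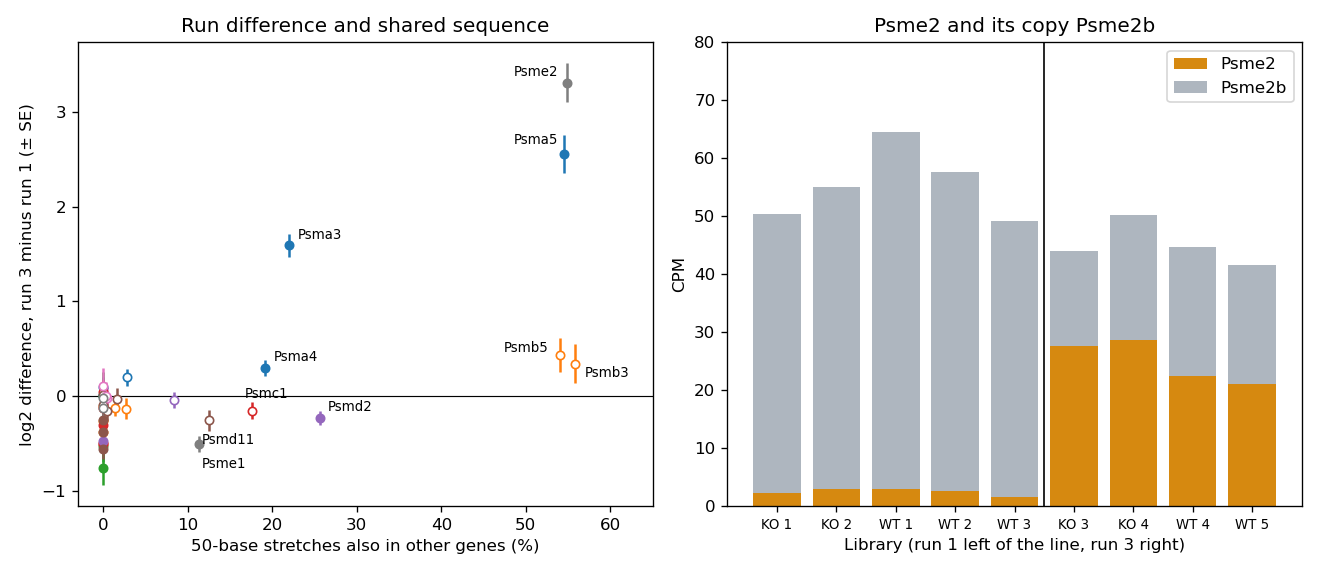
Left, log2 difference of run 3 minus run 1 (± SE, filled where called) against the percent of a gene's 50-base stretches that also occur in other genes, for the 41 tested proteasome genes in the colours of their roles; Psme2, Psma5 and Psma3 lie highest, at 3.31, 2.55 and 1.59, while Psmb3 and Psmb5 share as much and lie near 0.34 and 0.43. Right, CPM of Psme2 and its copy Psme2b stacked for each library, with Psme2 holding 50.2% to 62.6% of the sum in run 3 and 3.03% to 5.31% in run 1.

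The beta ring genes encode the inner rings, with the cutting subunits Psmb5, Psmb6 and Psmb7 and the structural subunits Psmb1 to Psmb4. Of the 7 tested genes 1 rose, Psmb6, and all 7 log2 fold changes were positive (0.05 to 0.47, median 0.25). Psmb6, which cuts after acidic residues, lies on chromosome 11 from 70525367 to 70527858 on the plus strand. It stood at 69.8, 86.2, 82.4 and 83.4 CPM in KO libraries, against 73.3, 77.4, 61.4, 59.5 and 52.7 CPM in WT libraries. In run 1 the groups overlapped and in run 3 both KO libraries lay above both WT libraries. This gave a log2 fold change of 0.34 ± 0.11 (SE, adjusted p = 0.0404), with 0.13 in run 1 and 0.55 in run 3 (adjusted p = 0.643 and 0.0103). A permutation test of the mean log2 CPM (exact, two-sided, genotype labels exchanged within runs) gave p = 0.10. The call was lost on leaving out KO replicate 2, 3 or 4 or WT replicate 3, 4 or 5 (adjusted p of 0.0619 to 0.147).

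Psmb1 missed the threshold at an adjusted p of 0.051. It stood at 115, 120, 127 and 126 CPM in KO, against 118, 108, 109, 84.6 and 94.8 CPM in WT, a log2 fold change of 0.27 ± 0.092. Its values overlapped in run 1 (0.06) and did not in run 3 (0.49, adjusted p = 0.00952). Psmb4 stood at 54.2, 54.0, 43.5 and 42.7 CPM in KO, against 48.9, 41.8, 40.3, 39.6 and 35.99 CPM in WT, and KO lay above WT within each run (0.25 ± 0.098, adjusted p = 0.0861). Psmb2 and Psmb7 had log2 fold changes of 0.20 and 0.24 (adjusted p = 0.309 and 0.17), and Psmb5 one of 0.05 (adjusted p = 0.876). Psmb3 had the largest log2 fold change of the ring, 0.47 ± 0.21 (adjusted p = 0.128), with 0.02 in run 1 and 0.87 in run 3, but is among the genes that share sequence.

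The immunoproteasome genes Psmb8, Psmb9 and Psmb10 encode cutting subunits that replace Psmb5, Psmb6 and Psmb7, mostly in immune cells and in cells exposed to interferon, and favour peptides that fit class I antigen presentation. Psmb10 rose and the other 2 were not called. Psmb10, on the minus strand of chromosome 8 from 105935735 to 105938444, stood at 29.7, 24.6, 13.8 and 16.1 CPM in KO libraries. In WT libraries it stood at 13.9, 13.0, 13.4, 10.99 and 12.3 CPM. Every KO library lay above every WT library of its run, and the 2 KO libraries of run 1 were the highest of all 9. The log2 fold change was 0.71 ± 0.17 (SE, adjusted p = 0.00742), the largest of the 41 tested proteasome genes. It was 0.36 in run 3 (adjusted p = 0.448) and 1.00 in run 1 (adjusted p = 0.0167), and the interaction term, run 3 minus run 1, was −0.65 with a p of 0.0468 before adjustment and 0.824 after it. The exact permutation test within runs gave p = 0.0167, the smallest that its 60 arrangements can give. The call was lost with the Ogt f/f controls alone (0.61, adjusted p = 0.0655).

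Psmb9 stood at 9.32, 6.57, 5.48 and 7.63 CPM in KO, against 4.40, 4.86, 3.98, 5.72 and 4.90 CPM in WT. Both KO libraries of run 1 lay above the WT libraries and the groups overlapped in run 3. Its log2 fold change was 0.58 ± 0.26 (adjusted p = 0.131). Its exons overlap those of Tap1 on the opposite strand, and the sources used here do not say whether the counting used strand. Psmb8 stood at 17.9, 19.2, 13.3 and 8.80 CPM in KO and at 16.4, 13.9, 19.1, 10.2 and 9.12 CPM in WT, with overlap in both runs and a log2 fold change of 0.17 ± 0.17 (adjusted p = 0.535).

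Immune cells are the cells best known for these genes. Summed markers of immune cells stood at 164, 154, 109 and 123 CPM in KO, against 136, 134, 157, 112 and 122 CPM in WT. Of the 15 markers, 13 had counts in every library, and the T cell marker Cd3e had 0 counts in some. With the mean level of these markers as a covariate, an alternative added after the data were seen, the log2 fold change of Psmb10 was 0.53 (adjusted p = 0.0743). In FPKM, the authors' values per length and depth, Psmb10 stood at 39%, 31.8%, 28.2% and 26.4% of its constitutive partner Psmb7 in KO. In WT it stood at 16.8%, 19.2%, 19.1%, 14.7% and 33%. Within run 3, WT replicate 5 thus lay above both KO libraries, and it had the lowest Psmb7 of all, at 33.4 FPKM. Psmb9 stood at 17%, 7.72%, 8.51% and 9.98% of Psmb6 in KO, against 7.3%, 7.57%, 6.18%, 10.3% and 11.7% in WT. Both KO libraries thus lay above the WT libraries in run 1, KO replicate 2 narrowly, and below them in run 3.

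**Figure D4:**
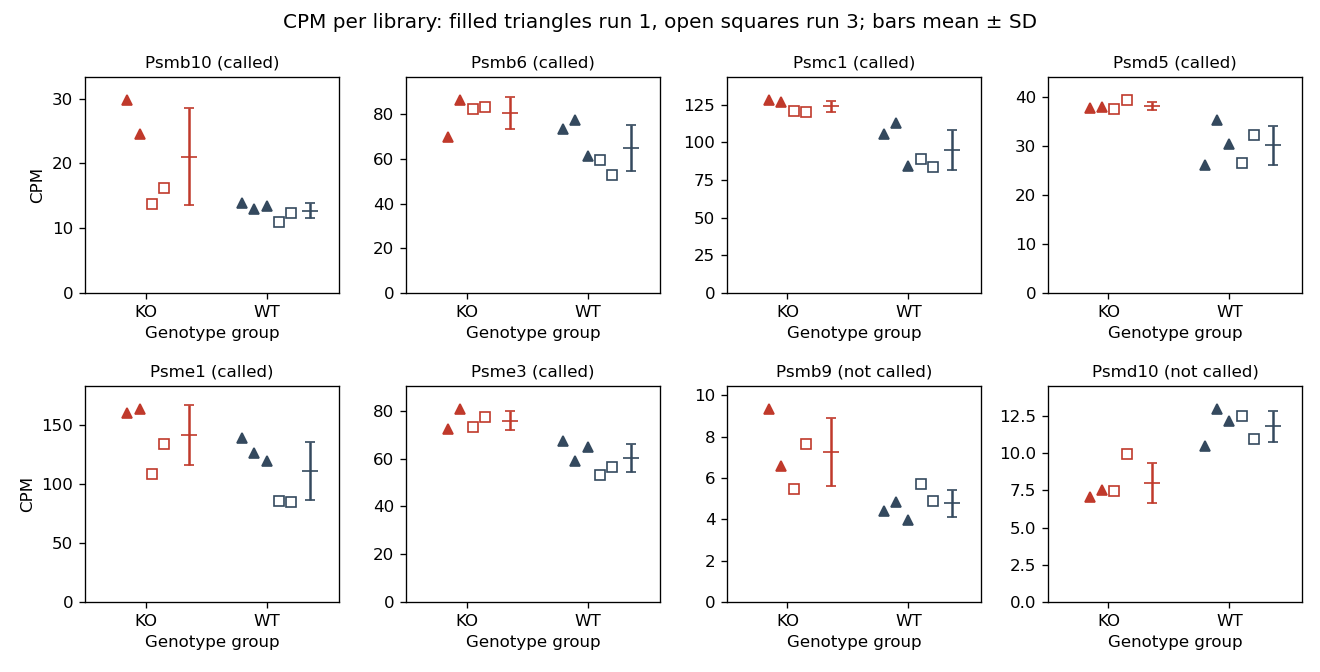
CPM in each KO library (red, left) and WT library (blue, right) for the 6 called proteasome genes and for Psmb9 and Psmd10, with run 1 as filled triangles, run 3 as open squares and the mean ± SD beside each group. Psmb10 is highest in the 2 KO libraries of run 1, at 29.7 and 24.6 CPM, and Psmd10 is lower in all 4 KO libraries, at 7.06 to 9.98 CPM, than in the 5 WT libraries.

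The base ATPases form the ring that unfolds substrates and opens the gate of the core, and 1 of the 6, Psmc1, rose. Psmc1 lies on chromosome 12 from 100110154 to 100123405 on the plus strand. It stood at 128, 127, 121 and 120 CPM in KO libraries, against 106, 113, 84.3, 89.0 and 83.6 CPM in WT libraries, with all KO libraries above all WT libraries. The log2 fold change was 0.41 ± 0.089 (SE, adjusted p = 0.00526), with 0.32 in run 1 (adjusted p = 0.186) and 0.48 in run 3 (adjusted p = 0.0108), and the exact permutation test within runs gave p = 0.0333. It remained called on leaving out each library in turn (0.36 to 0.45). The 17.6% of its sequence that is shared lies in pseudogenes. Psmc2 to Psmc6 had log2 fold changes of −0.13 to 0.08 and adjusted p-values of 0.538 to 0.932. Within run 1 those 5 were all below 0 (−0.30 to −0.0022) and within run 3 all above it (0.03 to 0.19).

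The Psmd class joins 3 roles. Psmd1 and Psmd2, the scaffold subunits of the base, and Psmd4, a ubiquitin receptor, had log2 fold changes of 0.07, −0.03 and 0.08, and none was called (adjusted p of 0.624 to 0.837). Psmd1 stood at 147, 161, 157 and 162 CPM in KO and at 151, 144, 169, 159 and 127 CPM in WT, and Psmd4 at 144, 122, 94.2 and 114 CPM in KO and at 133, 148, 125, 96.2 and 86.0 CPM in WT. For both genes the groups overlapped in each run.

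None of the 8 lid subunits was called, and their median log2 fold change was 0.10. Psmd8 came nearest, at 99.8, 76.7, 55.8 and 67.8 CPM in KO libraries, against 71.6, 76.4, 73.6, 53.6 and 43.9 CPM in WT libraries. Every KO library lay above every WT library of its run, narrowly so for KO replicate 2, and the level of both groups was lower in run 3. The log2 fold change was 0.30 ± 0.10 (adjusted p = 0.0582) and the exact permutation test within runs gave p = 0.0167, the smallest it can give. Psmd8 was called with the acinar markers as a covariate (0.41, adjusted p = 0.021) and without KO replicate 2 (0.38, adjusted p = 0.0254). Psmd12 stood at 90.2, 81.6, 89.7 and 102 CPM in KO, against 73.3, 82.6, 87.0, 70.8 and 79.6 CPM in WT. Its log2 fold change was 0.21 ± 0.093 (adjusted p = 0.125), and it too was called with the acinar markers as a covariate (0.33, adjusted p = 0.035). Psmd6 and Psmd3 had log2 fold changes of 0.20 and 0.12 (adjusted p = 0.127 and 0.426), Psmd13 and Psmd7 0.08 and 0.03 (0.672 and 0.856), and Psmd11 −0.13 (0.424). Psmd14, the enzyme that cuts ubiquitin chains from substrates, stood at 31.5, 27.8, 33.9 and 30.1 CPM in KO, against 41.0, 37.6, 33.6, 34.9 and 32.8 CPM in WT, with overlap in run 3 only. It had a log2 fold change of −0.21 ± 0.11 (adjusted p = 0.212).

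Psmd5, Psmd9 and Psmd10 are chaperones that help assemble the base and are absent from the finished proteasome. Psmd5 rose and Psmd10 had the lowest log2 fold change of all tested proteasome genes. Psmd5, on the minus strand of chromosome 2 from 34849734 to 34874968, stood at 37.8, 38.0, 37.6 and 39.3 CPM in KO libraries, against 26.1, 35.3, 30.3, 26.5 and 32.3 CPM in WT libraries. The KO libraries lay within 2 CPM of each other and above all WT libraries. Its log2 fold change of 0.35 ± 0.11 had an adjusted p of 0.0436, close to the threshold. The call was lost with DESeq2 (adjusted p = 0.0711), with Rn45s left out (0.0529), and on leaving out any KO replicate or WT replicate 1, 3 or 4 (0.0596 to 0.124).

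Psmd10, also known as gankyrin, lies on chromosome X. It stood at 7.06, 7.55, 7.48 and 9.98 CPM in KO libraries, against 10.5, 13.0, 12.2, 12.5 and 10.98 CPM in WT libraries. All 4 KO libraries lay below all 5 WT libraries, KO replicate 4 by the least. The fitted difference was −0.56 ± 0.19 (log2, adjusted p = 0.0577), and the exact permutation test within runs gave p = 0.0167, the smallest it can give. On FPKM values and without KO replicate 4 it was called lower. Psmd9 stood at 15.6, 13.6, 14.5 and 14.8 CPM in KO, against 12.2, 13.0, 12.7, 11.6 and 13.5 CPM in WT. The KO libraries lay above the WT libraries, with a log2 fold change of 0.22 ± 0.15 (adjusted p = 0.358).

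The activators open the core without the base. Psme1 and Psme2 form the interferon-inducible activator of the cytoplasm, Psme3 a related activator of the nucleus, and Psme4 a large single-chain activator. Psme1 and Psme3 rose. Psme1, on chromosome 14 from 55578123 to 55581529 on the plus strand, stood at 160, 163, 109 and 133 CPM in KO libraries. In WT libraries it stood at 139, 126, 120, 85.8 and 84.7 CPM. Both groups were lower in run 3, and within each run every KO library lay above every WT library. The log2 fold change was 0.41 ± 0.085 (adjusted p = 0.00348), the lowest p of the proteasome genes, with 0.32 in run 1 (adjusted p = 0.12) and 0.50 in run 3 (adjusted p = 0.0145). Its exons overlap those of Emc9 on the opposite strand.

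Psme3, on chromosome 11 from 101316213 to 101323537 on the plus strand, stood at 72.6, 80.6, 73.1 and 77.3 CPM in KO libraries. The WT libraries stood at 67.4, 58.9, 64.9, 53.3 and 56.3 CPM, with no overlap. The log2 fold change was 0.35 ± 0.088 (adjusted p = 0.0111), with 0.25 in run 1 (adjusted p = 0.28) and 0.45 in run 3 (adjusted p = 0.032). For Psme1 and Psme3 alike the exact permutation test within runs gave p = 0.0167, the smallest it can give, and both remained called on leaving out each library in turn. None of the 50-base stretches of Psme3 occurred in another gene. Psme4 overlapped between groups in both runs, at 166, 158, 169 and 165 CPM in KO and at 164, 175, 185, 176 and 155 CPM in WT (log2 fold change −0.05 ± 0.076, adjusted p = 0.688).

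Levels between genes can be compared in FPKM, and the subunits of a complex with equal copy numbers were not at equal RNA levels. Among genes with at most 10% shared sequence, the mean over the 9 libraries was 38.3 (Psma1) to 95.1 FPKM (Psma7) in the alpha ring and 36.8 (Psmb2) to 108 FPKM (Psmb1) in the beta ring. Of the alpha ring, the beta ring, the base ATPases and the lid, the base ATPases lay closest together, at 38.9 (Psmc6) to 59.5 FPKM (Psmc5). The lid subunits ran from 21.5 (Psmd14) to 58.9 FPKM (Psmd7). The immunoproteasome genes stood at 7.08 to 12.7 FPKM and the base chaperones at 5.14 to 16.4 FPKM, below the constitutive subunits. Psme1 averaged 134 FPKM over the 9 libraries, the highest mean, with 172, 175, 121 and 140 FPKM in KO and 151, 138, 133, 82.7 and 90.5 FPKM in WT. That rank rested on run 1, since in run 3 Psme1 averaged 108.5 FPKM and Psmb1 109.2 FPKM, and Psme1 is among the genes that share sequence. Levels of the most shared genes depended on the run: Psma5 averaged 29.0 FPKM in run 3 and 1.46 FPKM in run 1.

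**Figure D5:**
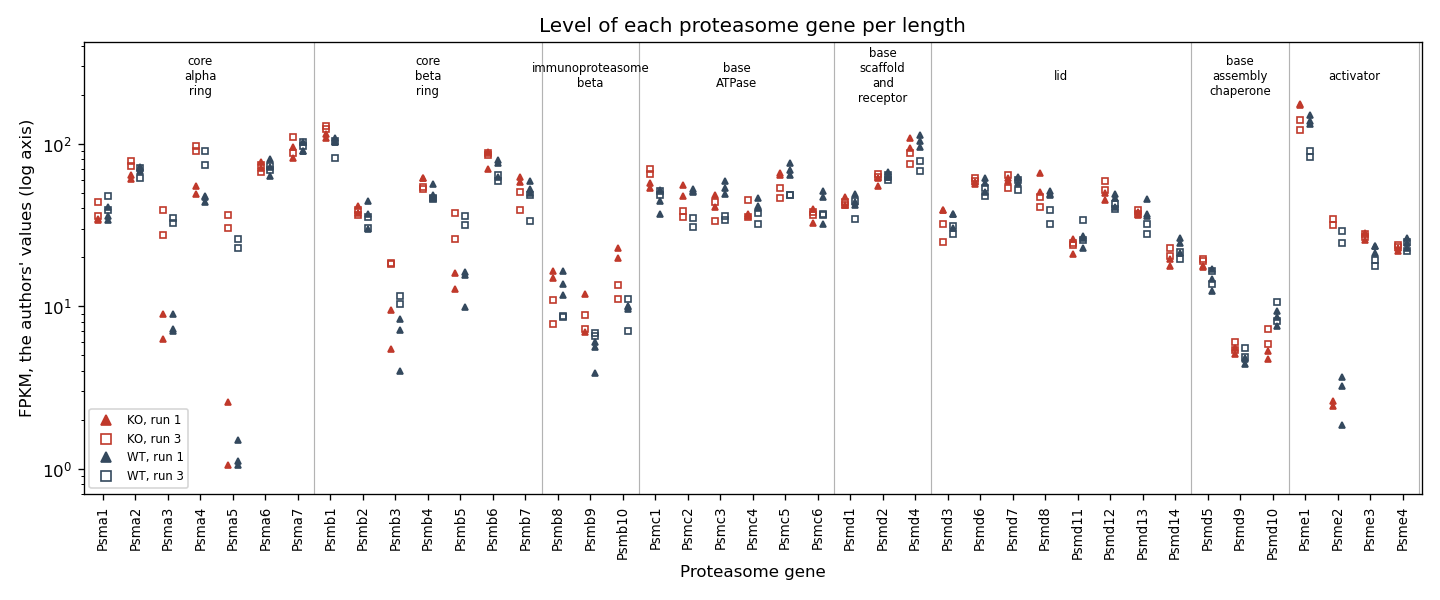
FPKM of the 41 tested proteasome genes in each library on a log axis, grouped by role, with KO in red left of WT in blue for each gene, run 1 as filled triangles and run 3 as open squares. Psma3, Psma5 and Psme2 split by run, and the immunoproteasome genes and base chaperones lie below most constitutive subunits.

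Genes of the pathway outside the name pattern were called at shares of 7.69% to 45.5% per list, against 18.5% of all tested genes. Of 10 tested subunits and assembly factors outside the name pattern, 1 rose, 1 fell and 8 were not called (20% called, median log2 fold change −0.04). Psmf1, a proteasome-binding protein first described as an inhibitor, rose to 67.3, 60.9, 55.5 and 52.5 CPM in KO, against 47.6, 44.4, 35.8, 38.9 and 35.6 CPM in WT, a log2 fold change of 0.56 ± 0.10 (adjusted p = 0.00139). Psmg2, a chaperone of alpha ring assembly, fell to 7.56, 7.55, 6.98 and 10.1 CPM in KO, against 19.1, 24, 11.4, 12.5 and 11.7 CPM in WT, a log2 fold change of −0.87 ± 0.24 (adjusted p = 0.0206). Of 11 regulators of proteasome genes, 1 rose, 1 fell and 9 were not called (18.2% called, median 0.10). Both shares are near the background. Nfe2l1, the transcription factor that raises proteasome genes when proteasome activity is short, fell to 309, 341, 281 and 301 CPM in KO, against 525, 555, 463, 389 and 410 CPM in WT. Its log2 fold change was −0.57 ± 0.082 (adjusted p = 0.000242), with −0.68 in run 1 and −0.46 in run 3.

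Of 13 genes for shuttles, ligases and deubiquitinases that work at the proteasome, 1 fell and 12 were not called (7.69% called, median −0.135), the one being Txnl1, a thioredoxin-like protein of the cap, at −0.25 ± 0.075 (adjusted p = 0.0304). Of 11 ubiquitin genes, activating enzymes and Vcp cofactors, 3 rose, 2 fell and 6 were not called (45.5% called, median 0.08). The cofactor Nploc4 rose by 0.47 (adjusted p = 0.000724), while its partner Ufd1l had a log2 fold change of −0.39 (adjusted p = 0.0414) and Faf1 one of −0.42 (adjusted p = 0.0126). Of 15 genes of antigen presentation and interferon response, 2 rose, 0 fell and 13 were not called (13.3% called, median 0.19). Ifit1 rose by 0.85 (adjusted p = 0.0269) and Irf1 by 0.35 (adjusted p = 0.047). Neither was called within run 1 or within run 3, and the groups overlapped for Ifit1 in run 1. Of the 15 log2 fold changes, 10 were positive and 5 negative, the latter with Irf9 at −0.50 (adjusted p = 0.0847). Tap1, whose gene neighbours Psmb9, stood at 16.9, 15.6, 15.9 and 13.9 CPM in KO and at 10.7, 9.39, 18.4, 8.28 and 13.5 CPM in WT (adjusted p = 0.218).

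Since Nfe2l1 binds antioxidant response elements of proteasome promoters, RefSeq promoter windows (GRCm38.p6, 250 bases before to 50 after the start) were searched on both strands for the letters TGACNNNGC. A window was given for 36 of the 43 genes, and 6 of them (16.7%) held the letters, against 17.3% of the windows of 9506 tested genes and 14% of all 27025. The 6 were Psmb5, Psmb6, Psmc6, Psmd9, Psmd12 and Psme4, of which Psmb6 rose and the other 5 were not called. The windows of Psmb6, Psmb5 and Psmd9, with the letters in capitals, and that of Psmc1, which rose and does not hold them, are given 5′ to 3′ on the strand of the gene:
Psmb6, chr11:70525107-70525406, plus strand: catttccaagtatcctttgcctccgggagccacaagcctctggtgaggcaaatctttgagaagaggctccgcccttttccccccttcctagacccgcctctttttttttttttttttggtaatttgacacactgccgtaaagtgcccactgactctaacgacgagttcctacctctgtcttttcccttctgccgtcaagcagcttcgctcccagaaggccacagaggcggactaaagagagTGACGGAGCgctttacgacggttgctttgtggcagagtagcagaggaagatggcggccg
Psmb5, chr14:54617946-54618245, minus strand: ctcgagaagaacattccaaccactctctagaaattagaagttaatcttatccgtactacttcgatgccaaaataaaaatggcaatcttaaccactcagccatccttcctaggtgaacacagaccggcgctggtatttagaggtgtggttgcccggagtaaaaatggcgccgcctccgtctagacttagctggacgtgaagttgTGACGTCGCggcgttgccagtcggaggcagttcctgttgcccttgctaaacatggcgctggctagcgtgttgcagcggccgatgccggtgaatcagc
Psmd9, chr5:123227940-123228239, plus strand: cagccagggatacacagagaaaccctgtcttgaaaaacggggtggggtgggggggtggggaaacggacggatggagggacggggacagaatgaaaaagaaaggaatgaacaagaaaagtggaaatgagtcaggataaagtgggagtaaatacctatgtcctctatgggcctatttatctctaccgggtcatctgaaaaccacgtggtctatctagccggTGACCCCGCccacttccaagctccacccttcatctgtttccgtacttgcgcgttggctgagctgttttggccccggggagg
Psmc1, chr12:100109952-100110251, plus strand: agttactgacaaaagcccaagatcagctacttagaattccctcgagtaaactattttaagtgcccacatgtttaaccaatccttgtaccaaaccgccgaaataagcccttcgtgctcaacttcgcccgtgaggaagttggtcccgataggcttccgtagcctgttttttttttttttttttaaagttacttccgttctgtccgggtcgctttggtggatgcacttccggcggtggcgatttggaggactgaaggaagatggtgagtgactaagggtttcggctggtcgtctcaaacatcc
Counted from the start site of each RefSeq window, the match began at position −9 in Psmb6, −47 in Psmb5 and −31 in Psmd9. That site can differ from the end of the gene in the GENCODE coordinates given above, as it does for Psmb6. Another 5 motifs were searched, all chosen after the data were seen. The letters CCGGAAG, the core that Ets factors bind, occurred in 12 of the 36 genes (33.3%), against 19.9% of tested genes with a window. CCAAT occurred in 14 (38.9%), against 42.6%. A form of the interferon-stimulated response element, GAAA followed after 2 free letters by GAAA, occurred in 4 (11.1%), namely Psmb3, Psmd4, Psmd9 and Psme1, against 3.57%. TGANTCA and GGAAGTGA occurred in 2 genes each (5.56%), against 6.06% and 5.54%. TGANTCA can overlap TGACNNNGC, and CCGGAAG can overlap GGAAGTGA. A match is a run of letters and not a measured binding site.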

How the data were processed

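RNA of 4 KO and 5 WT islet libraries was read from a table of counts per gene, whole numbers that the authors deposited without normalization, and from the authors' deposited FPKM table, for which the sources used here give no scaling between libraries. The library kit keeps strand, per the labels' protocols. Per the submitters' processing notes, which give neither role nor order, FastQC, Bowtie2 2.2.4.0, Cuffdiff 2.2.1, edgeR and the build mm10 were used. In the count table, 27 rows whose symbols had turned into dates (0.133% to 0.186% of counts) were left out.

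The main test was edgeR 4.0.16 (R 4.3.3), quasi-likelihood, TMM, the default filter on low counts, and a model of run and genotype, with Benjamini-Hochberg adjustment over all 12501 tested genes. Standard errors came from the fold change and its F statistic. Log2 CPM used a prior count of 2. The script was tested on simulated data. DESeq2 1.42.0, limma 3.58.1 (voom, and FPKM with pseudocounts of 1 or 0.1), other filters and scalings, covariates and left-out libraries were the alternatives. Shared sequence was measured as 50-base stretches of GENCODE transcripts (GRCm38). Called genes with the lowest p in each role, the immunoproteasome genes and the activators are given by library. The proteasome genes, the pathway lists, the markers and this rule were chosen with earlier results of these data known. Some genes that the rule takes are left out of the text and not reported here.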

Additional observations from a re-analysis of the deposited data

Results flagged for a closer look

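For 2 of the tested proteasome genes, 1 library stood apart from the others of its group by Dixon's test, which was run on 82 groups (41 genes in KO and in WT) and flags about 1 group in 20 by chance. Psma1, an alpha ring subunit, stood at 50.6 CPM in KO replicate 4, against 41.2 to 42.3 CPM in the other 3 KO libraries and 42.5 to 52.1 CPM in WT libraries. Psmd10, a chaperone of base assembly, stood at 9.98 CPM in KO replicate 4, against 7.06 to 7.55 CPM in the other 3 KO libraries and 10.5 to 13.0 CPM in WT libraries.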

How the results depend on the processing

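No paired analysis was possible because the replicate numbers follow the accession order and pair no libraries. The number of all genes called was 2315, and it was 672 without the run term, 1300 on FPKM without a filter, 1538 with the Ogt f/f controls alone, 1447 with the acinar markers as a covariate, 756 in run 1, 1021 in run 3 and 1595 to 2334 on leaving out 1 library. Of the proteasome genes, 6 were called higher, and 0 without the run term, 1 in run 1 and 4 to 6 on leaving out 1 library. None was called lower, and 1 (Psmd10) in the 3 fits on FPKM and without KO replicate 4 (range over left-out libraries 0 to 1). The median of the base genes was 0.01, with −0.16 in run 1, 0.16 in run 3 and −0.07 to 0.07 on leaving out 1 library. The core median was 0.20, with 0.0575 in run 1 and 0.14 to 0.22 on leaving out 1 library. The lid-class median was 0.08, with −0.00878 in run 1, 0.17 in run 3 and −0.000983 (without WT replicate 5) to 0.12 on leaving out 1 library. The sign turned for Psma3 without the run term (0.0219), Psmd1 without WT replicate 5 (−0.0172, range over left-out libraries to 0.114) and in run 1 (−0.0249), Psmd4 without KO replicate 4 (−0.000239, range to 0.145) and in run 1 (−0.0421), Psme2 summed with Psme2b (−0.000921) and Psme4 in run 3 (0.00394), and none of these genes was called. Psme1, Psmc1 and Psme3 kept their calls in 21 of 23 other settings each, losing them without the run term and in run 1. Psmb10 kept its call in 20 of 23, Psmb6 in 10 and Psmd5 in 4. The causes were not tested. Precision at these depths is lowest for genes at a few CPM, such as Psmb9.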
